A study of Mus musculus with 31 samples.

Results

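The 4 genes described here, Dbp, Tef, Hlf and Nfil3, encode the basic leucine zipper (bZIP) transcription factors that read the D-box, a circadian DNA element. They were found by gene symbol, each as a single row, and are 4 of the 48795 genes in the count table. They were chosen by their measured difference between control and deltamethrin in these same libraries, together with their role at the D-box, so every value of that contrast for them is a description and carries no test. Their correlations inside each group were tested across libraries.

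Total RNA from aliquots of homogenised mouse brain was sequenced in 31 samples, 13 labelled control and 18 labelled deltamethrin, a pyrethroid insecticide that holds voltage-gated sodium channels open. The series describes the exposure as developmental and its title names circadian rhythms. The labels give no strain, genotype, sex, litter, age, dose, vehicle or hour of collection for either group, and do not say whether samples are separate animals, so a p-value here measures the spread between samples, which may in part be technical. In such bulk tissue, fewer cells of a type and less RNA per cell cannot be told apart.

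DBP, TEF and HLF form the PAR bZIP family, named for a proline- and acidic-residue-rich region beside the DNA-binding domain. They activate transcription from D-boxes, and CLOCK and BMAL1 (the product of Arntl) drive Dbp through E-boxes, so Dbp messenger RNA swings widely over the day in many tissues. NFIL3, also called E4BP4, binds the same element and represses it; its gene is held down by the REV-ERB receptors and raised by the ROR receptors. Mice lacking all 3 activators have seizures, and the gene for pyridoxal kinase, Pdxk, is a known PAR bZIP target in brain.

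The stretches before the transcription starts are shown because E-boxes, D-boxes and receptor elements are the inputs through which these genes are known to be wired together. All come from RefSeq on GRCm38.p6, in which 5 starts matched the 4 genes, and are written 5′ to 3′ on the strand of the gene. Capitals mark a motif found by exact search of both strands in the 250 bases before the start: CACGTG (E-box), TTATGTAA or TTACGTAA (D-box), TGACGTCA (CRE, the element read by CREB) and AGGTCA (the core of ROR and REV-ERB elements). CCAAT, a general promoter box, was searched too and is not capitalised.
Tef, downstream start, chr15:81811164-81811413, plus strand: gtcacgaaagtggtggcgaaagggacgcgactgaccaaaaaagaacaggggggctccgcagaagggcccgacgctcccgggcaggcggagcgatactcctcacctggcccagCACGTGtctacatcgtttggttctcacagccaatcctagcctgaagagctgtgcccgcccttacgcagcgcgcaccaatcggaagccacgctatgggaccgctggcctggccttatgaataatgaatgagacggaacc
Tef, upstream start, chr15:81802534-81802563, plus strand: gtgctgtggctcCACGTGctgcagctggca
Hlf, chr11:90390918-90391167, minus strand: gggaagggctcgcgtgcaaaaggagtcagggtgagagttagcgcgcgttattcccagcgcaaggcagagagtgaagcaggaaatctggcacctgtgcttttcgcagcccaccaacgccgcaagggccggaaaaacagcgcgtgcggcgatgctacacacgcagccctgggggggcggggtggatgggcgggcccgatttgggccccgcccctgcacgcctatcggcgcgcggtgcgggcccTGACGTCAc
Nfil3, chr13:52981040-52981063, minus strand: ggcgctcggaacTGACCTactaac
Dbp, chr7:45704997-45705087, plus strand: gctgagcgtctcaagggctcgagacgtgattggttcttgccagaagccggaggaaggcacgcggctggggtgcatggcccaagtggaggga

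Each Tef start had 1 E-box, with its initial base 127 bases before the upstream start and 138 before the downstream start. The E-box of the upstream start lies inside an exon that GENCODE M21 annotates. The Hlf stretch held 1 CRE, 9 bases before the start, and the Nfil3 stretch 1 AGGTCA core, read on the opposite strand as TGACCT. That core also lies inside an annotated exon. The 216 bases of the Nfil3 window outside annotated exons, not printed, held no motif of the capitalised kinds. The Dbp window, of which the part outside annotated exons is printed, held no capitalised motif and 1 CCAAT box. That box was read on the opposite strand at -222 from the start. The Nfil3 window and the upstream Tef window also held 1 CCAAT box each, and the downstream Tef window held 2. The Hlf window held no CCAAT box. No D-box lay in any of the 5 windows. Among 32851 RefSeq windows of the same length, 6.02% held the E-box, 0.931% a D-box, 1.55% the CRE, 14% the AGGTCA core and 33.8% CCAAT. The matches are descriptions of these letters alone, and the search did not extend into introns or distal elements.

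On GRCm38 (GENCODE M21), Dbp (ENSMUSG00000059824) lies on chromosome 7 from 45705088 to 45710203 on the plus strand. Tef (ENSMUSG00000022389) lies on chromosome 15 from 81802421 to 81826863, also on the plus strand. Hlf (ENSMUSG00000003949) lies on chromosome 11 from 90336536 to 90390895 and Nfil3 (ENSMUSG00000056749) on chromosome 13 from 52967209 to 52981073, both on the minus strand. The table gives 1 count per gene, so the 10 annotated transcripts of Tef, 6 of Hlf and 5 of Dbp are not separated, and Nfil3 has 1.

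Libraries held 17570311 to 38680621 counts, and the mitochondrial ribosomal RNAs took 8.49 to 40.2% of counts in control and 7.32 to 26.3% in deltamethrin. Control replicate 2 had both the lowest total and the largest mitochondrial share. Of the lists of brain cell markers, neuron (4 of 4 genes), astrocyte (4 of 4), oligodendrocyte (4 of 4), microglia (4 of 4) and endothelium (3 of 3) passed the count filter in full. So did the lists for choroid plexus (5 of 5), cerebellum (5 of 5), striatum (6 of 6) and blood (5 of 5). The pituitary list kept 3 of 4 (not Prl), and of the liver list only Ttr, which choroid plexus also makes, was kept.

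All 4 members passed the filter on low counts in libraries of both groups. Counts per library ran from 969 to 3195 for Dbp, 2055 to 12764 for Tef, 723 to 5445 for Hlf and 79 to 351 for Nfil3. At the lowest count the counting error alone is 2.21% for Tef, 3.21% for Dbp and 3.72% for Hlf, and 11.3% for Nfil3, whose values are the least precise.

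Per kilobase of exon, Tef was the most abundant member in control, at 36.0 ± 5.42 CPM per kb (counts scaled to library size, per kilobase of exon; SD, n = 13), followed by Dbp at 27.6 ± 2.73. Hlf reached 14.7 ± 2.52 and Nfil3, the repressor, 3.43 ± 0.687 CPM per kb. In deltamethrin the same order held, with 33.9 ± 2.41 for Tef, 21.9 ± 3.94 for Dbp, 15.03 ± 2.92 for Hlf and 3.61 ± 0.628 for Nfil3 (CPM per kb, SD, n = 18). The library ranges of Tef and Dbp overlapped in both groups. Those of Dbp and Hlf were apart in control and overlapped in deltamethrin, and Nfil3 lay below every Hlf library in both. Averaged over all libraries, 94.2% of the genes kept had a lower per-length level than Tef, 91.4% than Dbp, 85.3% than Hlf and 54.4% than Nfil3. Lengths are those of merged annotated exons, and which transcripts the brain uses was not measured.

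Dbp, an activator and a textbook E-box target, had lower values in most deltamethrin libraries. Its control libraries ran from 69.8 CPM (replicate 7) over a median of 82.7 to 95.6 (replicate 11). Its deltamethrin libraries ran from 43.5 CPM (replicate 3) over a median of 64.2 to 88.1 (replicate 10). The groups overlapped, but 11 of 18 deltamethrin libraries lay below the lowest control library, and 4 of 13 control libraries lay above the highest deltamethrin library. The log2 fold change of deltamethrin over control was -0.33 ± 0.08 (SE), a ratio of 0.796. Across all 19529 genes tested, 0% passed an adjusted p-value under 0.05 in edgeR's quasi-likelihood test, and 4.37% (853 genes) had an unadjusted p-value under 0.05, 2.37% lower and 2% higher. Those shares are the background of the contrast, and nothing about the members is read from them.

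**Figure D1:**
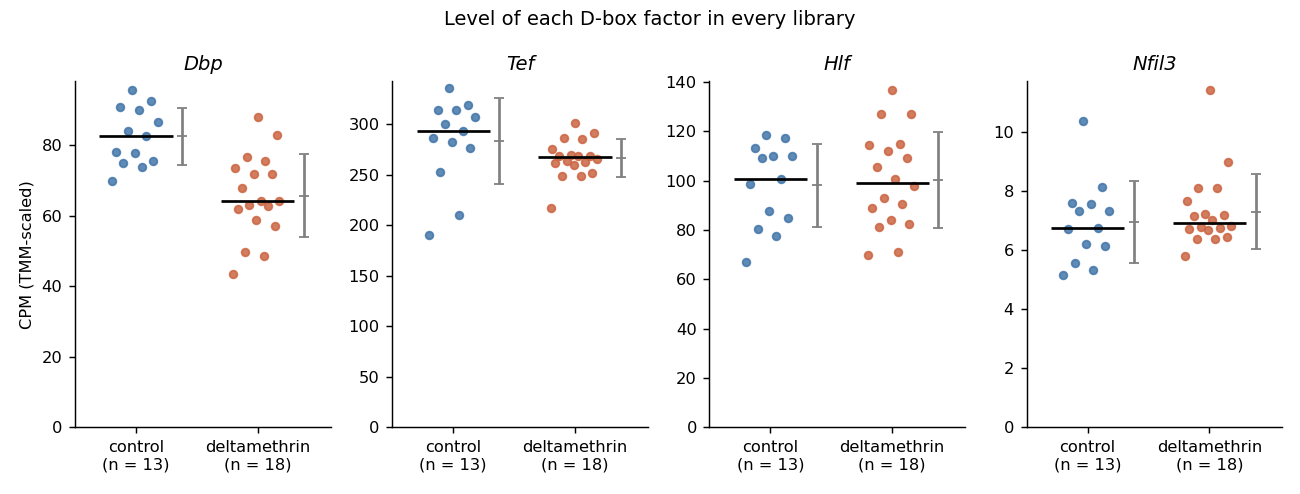
CPM (TMM-scaled) of Dbp, Tef, Hlf and Nfil3 in each of 13 control and 18 deltamethrin libraries. Points are libraries, black lines medians, and grey bars the mean ± SD; most Dbp points of deltamethrin (11 of 18) sit below the lowest control point at 69.8 CPM, while the other genes' groups overlap over most of their range.

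Tef, the activator with the highest level, ran from 191 CPM (control replicate 2) over a median of 293 to 336 (replicate 8) in control. In deltamethrin it ran from 217 (replicate 4) over a median of 267 to 302 CPM (replicate 11). The 2 lowest control libraries (replicates 2 and 7) lay below every deltamethrin library and 5 control libraries lay above every one, so the deltamethrin values sat inside the control range. The log2 fold change was -0.09 ± 0.07 (SE), and 17 of 18 deltamethrin libraries lay below the control median. The coefficient of variation was 15.1% in control and 7.11% in deltamethrin, a difference that was not tested.

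Hlf, the third activator, varied widely inside both groups (coefficient of variation 17.2% and 19.4%). It ran from 67.1 CPM (control replicate 2) over a median of 101 to 119 (replicate 4) in control, and from 69.7 (deltamethrin replicate 9) over a median of 99.2 to 137 (replicate 1) in deltamethrin. The groups overlapped over nearly all of that range, with 3 deltamethrin libraries above the highest control. Those were replicates 1, 2 and 3, whose sample titles carry the numbers 1, 2 and 3. The log2 fold change of Hlf was 0.03 ± 0.10 (SE). It was -0.0074 without control replicate 2 and -0.0022 with mitochondrial rRNA share as a covariate, so its sign depends on both.

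Nfil3, the repressor, ran from 5.18 CPM (control replicate 12) over a median of 6.77 to 10.4 (replicate 10) in control. In deltamethrin it ran from 5.82 (replicate 2) over a median of 6.91 to 11.4 CPM (replicate 5). A lone high library stood above the rest in each group, and 3 control libraries lay below every deltamethrin library. The log2 fold change was 0.08 ± 0.09 (SE). With the immediate early score (below) as a covariate it was 0.17 ± 0.07, against 0.08 without it.

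The balance of activator to repressor was described as the log2 ratio of CPM within a library. Dbp over Nfil3 averaged 3.57 ± 0.297 (SD) over the 13 control libraries and 3.15 ± 0.269 over the 18 deltamethrin libraries. The difference was -0.43, and 17 of 18 deltamethrin libraries lay below the control median of 3.54. Tef over Nfil3 was 5.34 ± 0.335 and 5.19 ± 0.242, a difference of -0.16 with 14 of 18 below the control median. Hlf over Nfil3 was 3.81 ± 0.436 and 3.76 ± 0.435, a difference of -0.05. The ratio of Dbp to Hlf, both activators, was -0.24 ± 0.341 in control and -0.61 ± 0.503 in deltamethrin, where it ran from -1.55 to 0.31. These ratios are made from the member values already given and add no separate evidence.

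A neighbouring gene shares sequence with Dbp. Sphk2, a sphingosine kinase gene on the opposite strand, overlaps 539 of the 2993 exon bases of Dbp (18%), and the labels do not say whether counting used strand. Sphk2 averaged 25.6 ± 4.48 CPM (SD) over the 13 control libraries and 25.8 ± 2.87 over the 18 of deltamethrin, a log2 fold change of 0.01 ± 0.08 (SE), against -0.33 for Dbp. An antisense gene, Gm17597, overlaps 193 of the 7867 exon bases of Tef (2.45%) and reached at most 2.04 CPM in any library. Hlf and Nfil3 shared no exon base with another annotated gene.

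Because all 4 factors meet at the same element and are clock outputs, the question was whether they vary together from library to library. Of the 6 pairs, 1 had an adjusted p-value under 0.05 for Pearson's r on log2 CPM in control and a different 1 in deltamethrin (two-sided permutation tests, 100000 resamples, adjusted over the 12 relations), and none did for Spearman's rho. Neither pair stood outside the 5th to 95th percentile of r with all other genes. For Tef with Hlf in control (0.70) the 95th percentile was 0.85 for either gene. For Dbp with Hlf in deltamethrin (-0.66) the 5th percentile was -0.74 for Dbp and -0.85 for Hlf.

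Dbp and Tef, paralogs, showed no relation that passed. In control r was -0.05 (rho -0.05, permutation p = 0.877 and 0.879, n = 13), and in deltamethrin r was 0.04 (rho 0.13, permutation p = 0.869 and 0.613, n = 18). The adjusted p-values of r were 0.920 in both groups. Without the 2 libraries farthest from the Dbp median r was -0.33 in control and 0.17 in deltamethrin. After a line on mitochondrial rRNA share was removed it was 0.50 and 0.47 (adjusted permutation p = 0.203 and 0.148). The value depended on how libraries were scaled: without scaling factors the control r was 0.85 (adjusted permutation p = 0.0108), a change of sign that is printed with the other settings in the closing section.

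Dbp and Hlf ran in opposite directions in deltamethrin, where r was -0.66 (permutation p = 0.00302, adjusted 0.0362; rho -0.57, permutation p = 0.0151, adjusted 0.181; n = 18), and -0.51 without the 2 libraries farthest from the Dbp median. The same libraries stood at both ends: replicates 9 and 10 had the 2 highest Dbp values (82.9 and 88.1 CPM) and the 2 lowest Hlf values (69.7 and 71.0), while replicate 3, lowest in Dbp, was second highest in Hlf (127 CPM). In control r was -0.36 (permutation p = 0.223, adjusted 0.447; rho -0.35, permutation p = 0.239; n = 13). The deltamethrin relation lost its adjusted p-value under 0.05 when replicate 2, 3, 9 or 10 was left out (r -0.61, -0.60, -0.60 and -0.58, adjusted permutation p 0.0503, 0.0596, 0.0630 and 0.0844). It was also lost without scaling factors (-0.44, 0.130) and after a line on mitochondrial rRNA share was removed (-0.49, 0.148). Whether r differs between the groups was not tested.

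Tef and Hlf were positively correlated in control, with r = 0.70 (permutation p = 0.00708, adjusted 0.0425; rho 0.43, permutation p = 0.146; n = 13). Without the 2 libraries farthest from the Tef median r was 0.27, so the relation rests on those samples. It was 0.50 without control replicate 2 (adjusted permutation p = 0.290) and 0.11 after a line on mitochondrial rRNA share was removed (0.734), and 9 of the 13 fits that left out a control library lost the call. In 8 of those 9 r stayed between 0.67 and 0.72, and without replicate 10 it was 0.87. In deltamethrin r was 0.37 (permutation p = 0.126, adjusted 0.303; rho 0.48, permutation p = 0.0478; n = 18). Without scaling factors it was 0.68 there (adjusted permutation p = 0.0108).

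With TMM scaling and all libraries in, Nfil3 had no relation to an activator with an adjusted p-value under 0.05. Without scaling factors its r with Tef in control was 0.67 (adjusted permutation p = 0.0333). Its r with Dbp was 0.08 in control and 0.41 in deltamethrin (permutation p = 0.789 and 0.0966), and without deltamethrin replicate 5, the library with its highest value, the latter was 0.64 (adjusted permutation p = 0.0283). With Hlf it was -0.33 and -0.48 (permutation p = 0.271 and 0.0396, adjusted 0.465 and 0.159). After a line on mitochondrial rRNA share was removed these were -0.59 and -0.60 (adjusted permutation p = 0.148 and 0.0937). The r of Nfil3 with Tef was 0.15 and 0.02 (permutation p = 0.612 and 0.920).

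**Figure D2:**
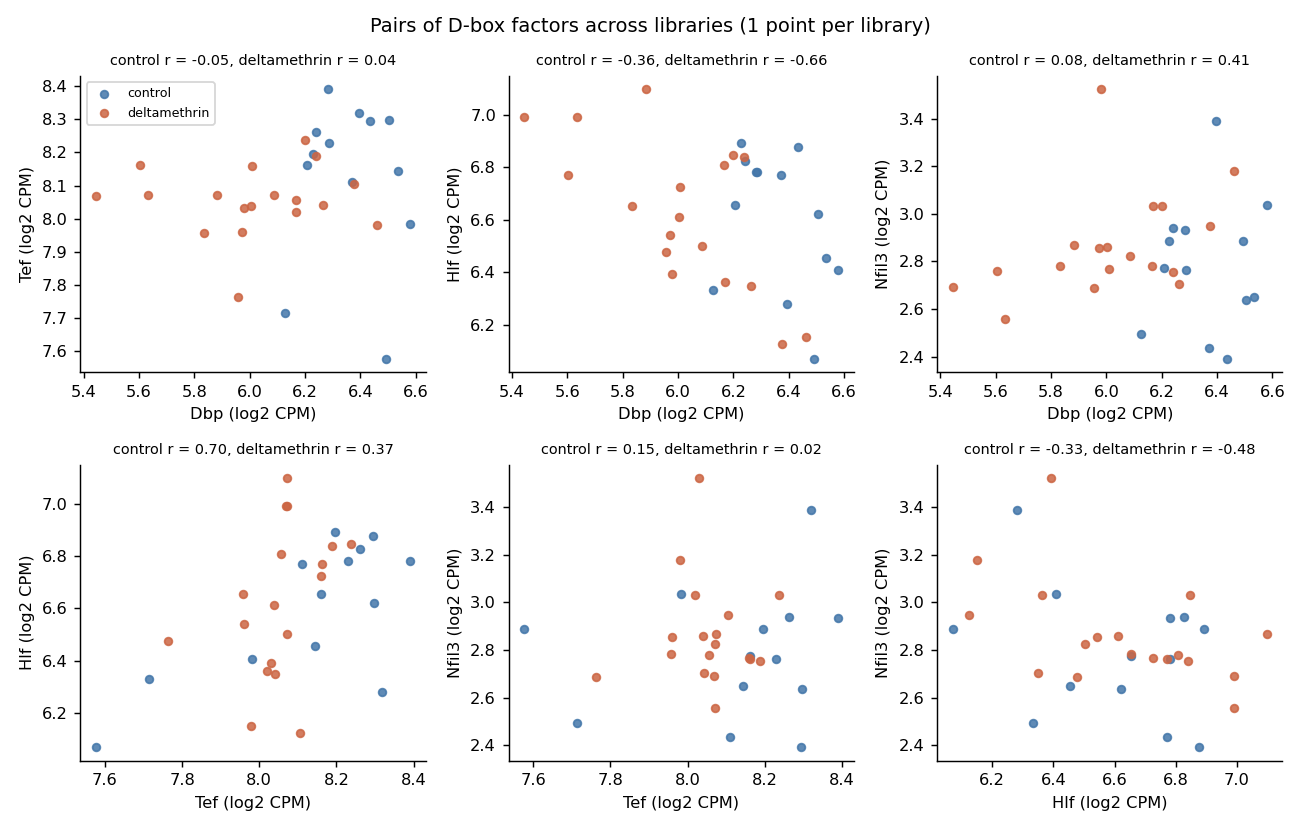
Log2 CPM of each pair of D-box factors, with 1 point per library, control in blue and deltamethrin in orange, and Pearson's r of each group above the panel. Dbp against Hlf slopes down (r = -0.36 and -0.66), Tef against Hlf slopes up (0.70 and 0.37) with 2 low control libraries at its lower left, and Dbp against Tef shows no slope in either group.

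Values of library composition moved with the members. Each member was compared with 7 measures of a library inside each group, 56 relations adjusted together. Hlf in both groups, and Tef in control, fell as mitochondrial rRNA took a larger share of counts. For Hlf r with the log2 share was -0.78 in control (permutation p = 0.00168, adjusted 0.0118; rho -0.73; n = 13) and -0.82 in deltamethrin (permutation p = 5e-05, adjusted 0.0028; rho -0.86; n = 18). Leaving out the 2 libraries whose share lay farthest from the median gave -0.52 and -0.78. For Tef r was -0.86 in control (adjusted permutation p = 0.00896; rho -0.60; n = 13), or -0.52 without the 2 farthest libraries, and -0.58 in deltamethrin (adjusted permutation p = 0.0517; rho -0.69; n = 18).

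Dbp had the opposite sign. Its r with the log2 share was 0.34 in control (adjusted permutation p = 0.589; rho 0.43; n = 13) and 0.50 in deltamethrin (adjusted permutation p = 0.132; rho 0.44; n = 18), or 0.75 and 0.68 once the 2 libraries of most extreme share were left out. Neither passed after adjustment. With the share as a covariate the log2 fold change of Dbp between the groups was -0.32 ± 0.07 (SE), about as large as without it (-0.33). For Hlf the covariate gave -0.0022 ± 0.06, against 0.03.

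**Figure D3:**
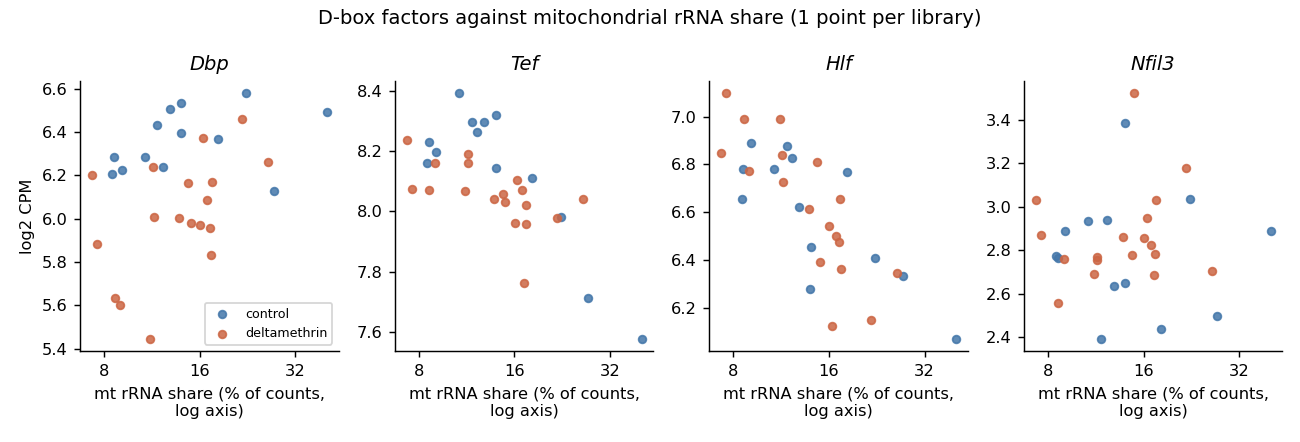
Log2 CPM of each D-box factor against the share of counts from mitochondrial ribosomal RNA (percent, log axis), 1 point per library, control in blue and deltamethrin in orange. Hlf slopes down in both groups (r = -0.78 and -0.82), Tef slopes down with the 2 control libraries of largest share lowest, and Nfil3 shows no slope (r = -0.04 and 0.17).

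Nfil3 rose in deltamethrin with the immediate early score, the mean log2 CPM of 9 genes that neurons switch on within minutes of activity (Fos, Fosb, Egr1, Junb, Arc, Npas4, Nr4a1, Ier2 and Dusp1). In deltamethrin r was 0.85 (permutation p = 0.0002, adjusted 0.0056; rho 0.64; n = 18), and 0.57 without the 2 libraries farthest from the median score. In control r was 0.44 (adjusted permutation p = 0.383; rho 0.15; n = 13) and -0.15 without the 2 farthest. The library highest in Nfil3 was also the highest in the score in each group, control replicate 10 and deltamethrin replicate 5. In control Nfil3 also fell as striatal markers rose (r = -0.78, adjusted permutation p = 0.011; rho -0.70; n = 13). Tef and Hlf fell in control as choroid plexus markers rose (r = -0.78 and -0.69, adjusted permutation p = 0.011 and 0.0486; rho -0.64 and -0.64; n = 13). In deltamethrin the same relations were 0.12 for Nfil3 with striatal markers, and 0.07 and -0.10 for Tef and Hlf with choroid plexus markers, none under 0.05. The summed choroid plexus markers ran from 256 to 1244 CPM in control and 238 to 706 in deltamethrin, the striatal markers from 429 to 842 and 336 to 882, and none of these markers was at 0 in every library. The part of these cells in the members' relations was not tested. Tef also rose with the log2 total count in both groups (r = 0.82 and 0.63, adjusted permutation p = 0.00896 and 0.0239), and Hlf did in control (0.82, adjusted 0.00896). The number in the sample title, whose meaning the labels do not give, had no adjusted permutation p-value under 0.05 with any member. Its r with Dbp in deltamethrin was 0.51 (permutation p = 0.0295, adjusted 0.127; rho 0.53; n = 18).

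The wider clock loop was examined through 17 genes, among them the E-box activators Arntl, Arntl2, Clock and Npas2, the repressors Per1, Per2, Per3, Cry1, Cry2, Ciart, Bhlhe40 and Bhlhe41, and the receptors Nr1d1, Nr1d2, Rora and Rorb. All 17 passed the count filter. The 4 members gave 136 relations with them in the 2 groups, tested by permutation and adjusted together.

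Dbp rose and fell with Ciart, the gene of the repressor CHRONO. In control r was 0.80 (permutation p = 0.00134, adjusted 0.0101; rho 0.80; n = 13) and in deltamethrin 0.85 (permutation p = 1e-05, which is the lowest value that 100000 resamples allow; adjusted 0.000272; rho 0.83; n = 18). Without the 2 libraries farthest from the Ciart median these were 0.77 and 0.74, and after a line on mitochondrial rRNA share was removed 0.79 and 0.86. By likeness, the smaller of the 2 group values of r, Ciart ranked 1 of 19528 other genes for Dbp, and 5 after that line was removed. The Per genes, which share E-box and D-box drive, had lower values of r. The r of Dbp with Per1, Per2 and Per3 was 0.44, 0.49 and 0.44 in control and 0.04, 0.12 and 0.17 in deltamethrin, and none had an adjusted permutation p-value under 0.05 (0.283, 0.223 and 0.283 in control). After the line on mitochondrial rRNA share they were 0.62, 0.58 and 0.36 in control and 0.55, 0.40 and 0.37 in deltamethrin, so the low deltamethrin values depend on that setting. Whether these differ from the r with Ciart was not tested.

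Dbp fell as Clock, Rora and Rorb rose in deltamethrin, and as Rorb rose in control. Clock, the E-box partner of BMAL1, had r = -0.86 in deltamethrin (permutation p = 1e-05, adjusted 0.000272; rho -0.81; n = 18) and -0.54 in control (adjusted permutation p = 0.166; rho -0.49; n = 13). Rorb, a ROR receptor gene of sensory and clock neurons, had -0.78 and -0.73 (adjusted permutation p = 0.00136 and 0.0255), and Rora -0.75 and -0.47 (0.00359 and 0.246). Hlf took the opposite sign with these genes. In deltamethrin its r was 0.88 with Clock, 0.92 with Rora, 0.84 with Rorb and 0.87 with Nr1d2, a REV-ERB gene, with adjusted permutation p-values of 0.000272, 0.000272, 0.00051 and 0.000272 (n = 18). In control these were 0.36, 0.38, 0.75 and 0.66, with adjusted permutation p-values of 0.425, 0.392, 0.0199 and 0.0671 (n = 13). Of them only Rorb was under 0.05 in both groups. High values of r with Hlf were common: 5% of all 19528 genes had r above 0.85 in deltamethrin, a level that Rorb did not reach, and 5% had r below -0.85.

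Tef rose with Cry2, Bhlhe40 and Bhlhe41 in both groups. Its r with Cry2, a cryptochrome gene, was 0.91 in control and 0.78 in deltamethrin (adjusted permutation p = 0.00583 and 0.00051). With Bhlhe40 and Bhlhe41, which encode E-box repressors also called DEC1 and DEC2, it was 0.86 and 0.87 in control (adjusted permutation p = 0.00992 and 0.00672) and 0.72 and 0.66 in deltamethrin (0.00617 and 0.0124). With Nr1d1, the gene of REV-ERBα, it was 0.84 in deltamethrin (adjusted permutation p = 0.000453) and 0.57 in control (0.120). In control these relations rest on the 2 libraries farthest from the median of the other gene, without which r was 0.48, 0.38 and 0.45 for Cry2, Bhlhe40 and Bhlhe41. Removing a line on mitochondrial rRNA share left Tef with Cry2 at 0.63 in control (adjusted permutation p = 0.099) and 0.73 in deltamethrin (0.0162). Bhlhe40 and Bhlhe41 lost the call in both groups after that line, at 0.50 and 0.60 in control (adjusted permutation p = 0.211 and 0.119) and 0.52 and 0.50 in deltamethrin (0.106 and 0.119). Bhlhe41 in deltamethrin was at 0.40 without the 2 libraries farthest from its median. Npas2, a paralog of Clock, had the most negative r with Tef in control, -0.85 (adjusted permutation p = 0.00385), and -0.33 after the line (0.443). High values of r with Tef were common too. Over all other genes, 5% had r above 0.85 in control and above 0.70 in deltamethrin. Bhlhe41 in deltamethrin did not reach that level, and Bhlhe40 lay close to it in both groups.

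Hlf shared the positive relation with Cry2, at 0.83 in control and 0.69 in deltamethrin (adjusted permutation p = 0.00245 and 0.0124). In control it was 0.48 (0.231) after the line on mitochondrial rRNA share. With Bhlhe40 and Bhlhe41 the r of Hlf in control was 0.78 and 0.82 (adjusted permutation p = 0.0124 and 0.004). After the line these were 0.37 and 0.52 (0.399 and 0.192). In deltamethrin, before the line, they were 0.60 and 0.51 (adjusted permutation p = 0.0399 and 0.109). Arntl2 and Npas2 had negative r with Hlf in control, -0.78 and -0.72 (adjusted permutation p = 0.0133 and 0.0253), and -0.51 and -0.0080 after the line (0.192 and 0.979). Before the line, these values for Cry2, Bhlhe40, Bhlhe41, Arntl2 and Npas2 lay inside the 5th to 95th percentile of r of Hlf with all other genes. That range was -0.83 to 0.85 in control and -0.85 to 0.85 in deltamethrin. In deltamethrin the r of Hlf with Cry2, Bhlhe40 and Nr1d1 turned from 0.69, 0.60 and 0.59 to -0.22, -0.21 and -0.39 once a line on mitochondrial rRNA share was removed. Those with Clock, Rora, Rorb and Nr1d2 kept their sign and their adjusted permutation p-value under 0.05.

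Nfil3 had 1 relation under 0.05 in each group, with Clock in control (r = -0.68, adjusted permutation p = 0.0498; rho -0.62; -0.24 without the 2 libraries farthest from the Clock median) and with Rorb in deltamethrin (-0.62, adjusted 0.0218; rho -0.66; -0.66 without them). Its r with Nr1d1, which represses it, was 0.14 in control and -0.04 in deltamethrin, and with Nr1d2 -0.66 and -0.50 (adjusted permutation p = 0.0579 and 0.113). Its highest r was with Per1, 0.45 and 0.53 (adjusted permutation p = 0.270 and 0.0858; -0.28 and 0.12 without the 2 libraries farthest from the Per1 median). After the line on mitochondrial rRNA share these were 0.46 and 0.85.

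**Figure D4:**
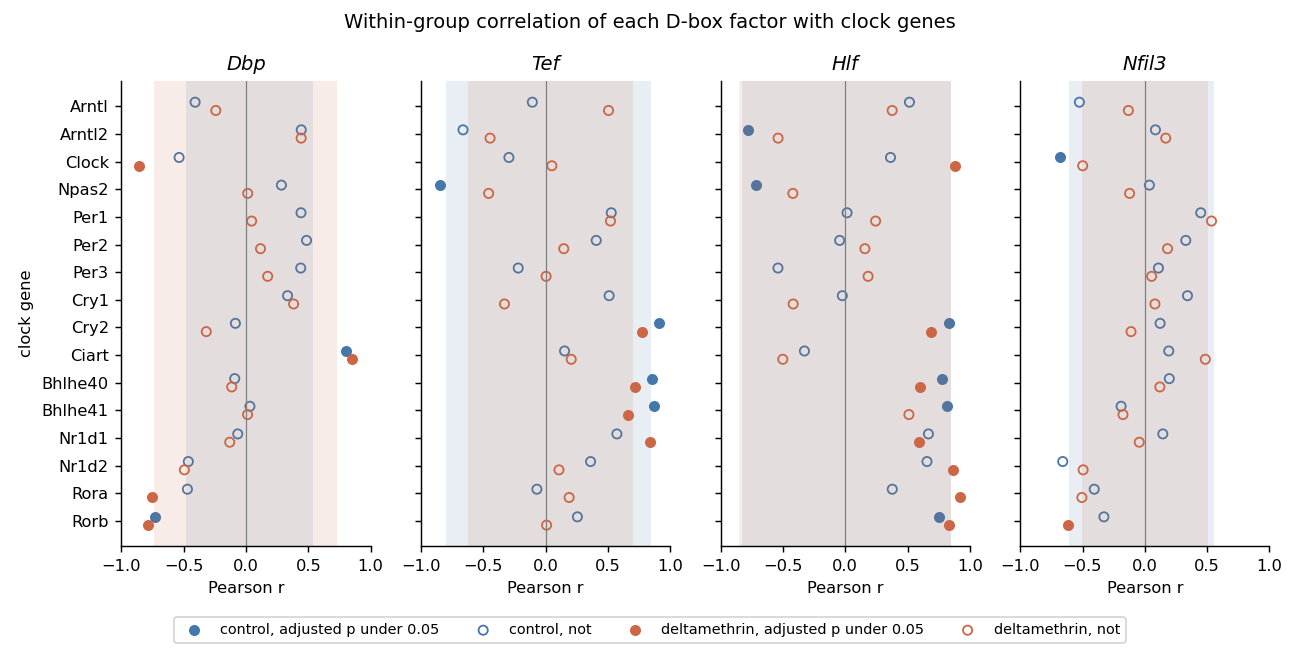
Pearson's r of each D-box factor with clock genes inside each group, control in blue (n = 13) and deltamethrin in orange (n = 18), filled where the adjusted permutation p-value is under 0.05. Shading spans the 5th to 95th percentile of r with all other genes in that group. Ciart stands beyond it for Dbp in both groups. For Hlf the shading itself reaches about 0.85 in each direction, and for Tef in control it spans -0.80 to 0.85.

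The genes most like each member, out of 19528, differed from member to member. After Ciart, those most like Dbp were Mrpl2 (a mitochondrial ribosomal protein gene, r 0.80 in control and 0.83 in deltamethrin), Aurkaip1 (0.79 and 0.79), Polr2h (an RNA polymerase subunit gene, 0.80 and 0.79) and Lin37 (0.84 and 0.78). Those most like Tef were Ip6k1, an inositol phosphate kinase gene (0.96 and 0.93), Brap (0.93 and 0.90), Strn4 (0.92 and 0.88), Prkar1b, a protein kinase A subunit gene (0.91 and 0.88), and Rexo1 (0.88 and 0.88). After the line on mitochondrial rRNA share these 5 had r of 0.89, 0.73, 0.75, 0.62 and 0.52 in control. In deltamethrin they had 0.90, 0.85, 0.83, 0.83 and 0.82 after it. Those most like Hlf were Mapk9, the gene of the kinase JNK2 (0.97 and 0.95), Lpgat1 (0.96 and 0.95), Gnaq, a G protein subunit gene (0.96 and 0.94), Fam117b (0.94 and 0.95) and Elavl1 (0.94 and 0.95). Those most like Nfil3 were Ddit4, an inhibitor of mTOR signalling induced by stress (0.77 and 0.78), Maff, a small MAF bZIP gene (0.77 and 0.86), Gm13889 (0.76 and 0.86), Ccnd3, a cyclin gene (0.71 and 0.73), and Nfkbia, the gene of an NF-kappa-B inhibitor (0.70 and 0.82). All points are libraries that share composition and depth, so these are descriptions without a test.

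No member was among the genes most like another member. On the same scale Hlf ranked 3750 of 19528 for Tef and 17449 for Dbp, Tef ranked 8937 for Dbp, and Nfil3 ranked 6939 for Dbp, 7346 for Tef and 12421 for Hlf. Sphk2, which overlaps Dbp, ranked 4539 for it. The share of genes with a high r also differed by member. In control 5% of genes exceeded 0.54 with Dbp and 0.56 with Nfil3, against 0.85 with Tef and 0.85 with Hlf. In deltamethrin the values were 0.73 with Dbp, 0.50 with Nfil3, 0.70 with Tef and 0.85 with Hlf.

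The other genes of the pathway were counted in the same contrast of deltamethrin with control. None of the genes named here had an adjusted p-value under 0.05 in edgeR's test, as for all genes. Of the 8 repressors and E-box or D-box targets, 4 (Per1, Per2, Per3 and Ciart) were lower at an unadjusted p-value under 0.05 and all 8 fold changes were negative, with a median log2 of -0.13 against 0.0014 for all genes. Of the 4 E-box activators, 1 was higher at that level (Arntl, log2 fold change 0.12 ± 0.05 SE), with a median of 0.07. Of all 19529 genes tested, 2.37% were lower and 2% higher at that level, and 9665 had a negative fold change. The members and these lists were picked with these results known, and the counts support nothing further.

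Genes known to be driven by PAR bZIP factors showed no common direction. Of 10 listed, 5 passed the count filter, 3 with a higher and 2 with a lower fold change, none at an unadjusted p-value under 0.05 (edgeR). Pdxk, pyridoxal kinase, had 135 CPM in control and 145 in deltamethrin, a log2 fold change of 0.11 ± 0.13 (SE). Por, the electron donor of cytochrome P450 enzymes, and Alas1, which opens haem synthesis, had -0.03 ± 0.10 and -0.06 ± 0.07. Abcb1a, the drug efflux pump of brain vessels, had 0.11 ± 0.14, and Tshb, a thyrotropin subunit gene at under 1 CPM, 0.25 ± 0.20. The liver-type targets Nr1i3, Cyp2b10, Cyp2a5, Cyp2c50 and Cyp7a1 did not pass the filter.

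Of the C/EBP family, bZIP factors that bind related sites, 5 of 6 genes passed the filter, and 1 (Cebpd, from 4.89 to 3.98 CPM, log2 fold change -0.28 ± 0.13 SE) was lower at an unadjusted p-value of 0.0294 (adjusted 0.813 over all genes, edgeR). The 9 immediate early genes, which set the score above, all had negative fold changes, against 9665 of all 19529 genes tested. At an unadjusted p-value under 0.05 (edgeR), 3 of them were lower (Npas4, Ier2 and Dusp1), against 2.37% of all genes. Their median log2 fold change was -0.37. Nfil3, which followed that score within the deltamethrin libraries, did not share that sign between groups (0.08 ± 0.09 SE).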

How the data were processed

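The authors deposited 1 table of raw counts per Ensembl gene (48795 genes, whole numbers, not normalized), with a column for each of the 31 samples, matched by title. The submitters' processing notes name GRCm38, Trimmomatic, HISAT2, SAMtools and MultiQC, and the counting tool, annotation and use of strand are not given in the sources used here. Groups follow the agent label, and replicate numbers follow sample order. Genes were kept by filterByExpr (minimum count 10, minimum total 15), leaving 19529. Libraries were scaled by TMM, and groups were compared with the quasi-likelihood test of edgeR 4.0.16 (R 4.3.3, robust, no covariates) with Benjamini-Hochberg adjustment; DESeq2 1.42.0 was an alternative. The SE is the log2 fold change divided by the root of F. Log2 CPM used a prior count of 2. Correlations were tested by two-sided permutation with 100000 resamples (numpy 2.4.6), and the rule for leaving out 2 libraries takes those farthest from the median of the x measure. Gene lengths and coordinates come from GENCODE M21, in which 48349 gene IDs (99.1%) were found, and promoter windows from RefSeq, GRCm38.p6. The pipeline was tested on simulated data. Named genes were the 4 members, the 5 genes most like each, and list genes with an unadjusted p-value under 0.05 or a leading r; Sphk2 and Gm17597, and other list genes, were added after their values were seen. Members and lists were chosen with earlier results of these data known. Correlations were adjusted over all 17 clock genes, and some list results are not reported here.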

Additional observations from a re-analysis of the deposited data

How the results depend on the processing

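With 19529 genes tested, 0 passed an adjusted p-value of 0.05 in edgeR, and 0 did so under RLE, upper quartile or no scaling factors, no count filter, a mean count of at least 50, DESeq2 and each of the 3 covariates, or in any of 31 fits that left out 1 library. At p-values before adjustment under 0.05 there were 853 genes, from 431 with the immediate early score as covariate to 1948 with no count filter, with 1796 for the mitochondrial rRNA covariate and 986 for DESeq2. Removing all mitochondrial genes, tried after seeing the data, gave 0 and 841. The smallest adjusted p-value over all genes was 0.441 in the main edgeR fit. It was 0.053 with DESeq2 and 0.052 without control replicate 5 (edgeR), just above the threshold. With the immediate early score as covariate (edgeR) it was 0.9998. Under the settings named, the log2 fold change of Dbp ran from -0.33 to -0.28 and, leaving out 1 library, from -0.36 to -0.30. Tef ran from -0.10 to -0.04 and -0.13 to -0.06, and Nfil3 from 0.07 to 0.17 and 0.03 to 0.14. Hlf turned to -0.0022 with the mitochondrial rRNA covariate, and ran from -0.0074 to 0.066 leaving out 1 library.

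The number of correlated pairs depended on the setting. In control it was 1, against 4 without scaling factors and 0 after removing a line on mitochondrial rRNA share, and 0 to 1 leaving out 1 library. In deltamethrin it was 1, against 0 after that line, and 0 to 2 leaving out 1 library. Without scaling factors it was also 1, but a different pair, Tef with Hlf (0.68) in place of Dbp with Hlf (-0.44). Without scaling factors r in control turned to 0.85 for Dbp with Tef, 0.68 for Dbp with Hlf and 0.42 for Hlf with Nfil3. After the line on mitochondrial rRNA share it turned to 0.50 for Dbp with Tef in control and -0.21 for Tef with Hlf in deltamethrin. After a line on the immediate early score it turned to -0.042 for Dbp with Nfil3 and -0.14 for Tef with Nfil3 in control, and -0.0022 for Tef with Nfil3 in deltamethrin. With RLE factors it was -0.012 for Dbp with Tef in deltamethrin. Leaving out 1 library, Dbp with Tef ran from -0.41 to 0.21 in control and -0.036 to 0.16 in deltamethrin, Dbp with Nfil3 from -0.089 to 0.17 in control, and Tef with Nfil3 from -0.017 to 0.32 in control and -0.17 to 0.097 in deltamethrin. The cause was not tested.

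Relations with clock genes and with the 5 most alike genes were also run after a line on mitochondrial rRNA share and without control replicate 2, both added after seeing the data. Over all of them, past the threshold or not, 29 of 174 changed sign after the line and 9 of 87 without control replicate 2. Single values are given mainly for clock relations past the threshold, a choice made after the full set had been seen. Also given, though not past the threshold, were Dbp with Per1, Per2, Per3 and Nr1d1, Nfil3 with Per1, and Tef with Rora. Values after the line for Tef with its 5 most alike genes, which have no test, were given too. Of the 29 clock relations past it, 14 stayed past it after the line, 12 did not and 3 changed sign (Hlf in deltamethrin with Cry2 to -0.22, Bhlhe40 to -0.21 and Nr1d1 to -0.39). Of the 13 in control, 8 did not stay past it without control replicate 2. Some relations not past the threshold grew after the line. Dbp with Nr1d1 in deltamethrin went from -0.13 to 0.70, and Tef with Rora in control from -0.07 to -0.73. No p-value is given for these. For the untested r with the most alike genes, a change over 0.1 was counted as moved, a limit also set after values were seen. By that limit 6 moved and 32 did not after the line, and 1 moved and 18 did not without control replicate 2. The 6 were Tef with Brap, Strn4, Prkar1b and Rexo1 in control, and Hlf with Mapk9 and Gnaq in deltamethrin. Counting error limits Nfil3 most. No paired analysis was possible because sample order alone set the replicate numbers, which link no samples across groups.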
